A study of Homo sapiens with 6 samples.

Results

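The genes described here are PPP2R5A, 8 other subunit genes of protein phosphatase 2A (PP2A), and MYC. They were taken by gene symbol from the deposited tables, and all 10 were found among the 62111 gene IDs listed. RNA levels were measured in K562 cells, a human leukaemia line with erythroid features, in 3 libraries from cells with SF3B1-K700E and 3 from cells with wild-type SF3B1 (WT). SF3B1 is a spliceosome protein of the U2 snRNP that takes part in choosing the branch point, and the K700E substitution recurs in blood cancers. All libraries share the K562 background, no treatment is named in the labels, and the labels do not say how the substitution was introduced or whether either group came from 1 clone.

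PP2A is a serine and threonine phosphatase made of a scaffold subunit, a catalytic subunit and 1 of several regulatory subunits that choose the substrate. The B56 regulatory subunits, to which PPP2R5A belongs, direct PP2A to substrates such as MYC, where removal of a phosphate from a serine lets the protein be degraded. PPP2R5A has been reported to be misspliced in SF3B1-mutant cells through a cryptic 3′ splice site, with loss of its transcript and longer-lived MYC protein. Values per gene hold neither splice junctions nor protein, so only the RNA levels in that scheme were measured here.

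Of these 9 PP2A genes, PPP2R5A was the one whose libraries were separated by genotype, with a mean in K700E cells of 49.8% of the mean in WT cells. Its difference of -0.96 on the log2 scale missed the threshold of the planned test (limma adjusted p = 0.0621). MYC RNA, in TPM as deposited, was higher in every K700E library than in any WT library, at 129.6% of the WT mean. It did not pass either (limma adjusted p = 0.27), and its groups overlapped once libraries were scaled to each other. Of the 15493 genes tested, 4.99% had K700E libraries that all lay below the WT libraries, as PPP2R5A did, and 19.0% had them all above, as MYC did. The other 8 PP2A subunit genes had means in K700E cells between 94.9 and 119.5% of those in WT cells, and their libraries overlapped. TPM (transcripts per 1000000 transcripts) is a level per base of gene length, relative to the rest of the library. In bulk RNA, fewer cells with a transcript and less of it in each cell cannot be told apart.

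Libraries held between 104642332 and 136588117 recovered read ends. WT replicate 3 lay between the other WT libraries in 75.9% of 15493 tested genes and in all 10 genes described here, while K700E replicates lay between their 2 partners in 25.7 to 46.3% of genes. The erythroid genes that mark K562 cells were present in all 6 libraries, with summed levels of 10 markers of 4224 to 8438 TPM in K700E and 3412 to 5849 TPM in WT. The top of the K700E range was replicate 1, where HBE1 alone stood at 3710 TPM. In K700E replicates 2 and 3 HBE1 stood at 634 and 603 TPM, and in WT at 834 to 1368 TPM. None of the 10 passed by limma, and TFRC and HBZ, at 171 and 214% of their WT means in K700E, were the 2 whose groups did not overlap. Of 10 markers of other blood cells, 7 had a mean under 1 TPM, and the summed level of the list was 6.78 to 19.3 TPM in K700E and 11.3 to 16.5 TPM in WT. The T-cell gene CD3G averaged 3.26 TPM in K700E and 0.479 TPM in WT, without overlap and without passing. CD3E (0.758 TPM in K700E, 0.387 TPM in WT) and, at trace levels, CD8A (0.0175 TPM in K700E, 0 in WT) were also higher without overlap. Neither reached the level tested. ITGAM averaged 4.01 TPM in K700E and 9.24 TPM in WT and did not pass. Its groups overlapped, with 8.76 TPM in K700E replicate 3, as did those of the rest of the list. The summed level of 10 stromal and epithelial markers was 555 to 620 TPM in K700E and 241 to 425 TPM in WT, without overlap. Most of that gap was KRT8, a keratin, at 340 ± 71.5 TPM in K700E and 131 ± 42.7 TPM in WT (SD, n = 3 each). EPCAM, at 56.6 TPM in K700E and 61.4 TPM in WT on average, and KRT19, at 175 TPM in K700E and 146 TPM in WT, overlapped, DCN was at 0.181 TPM in K700E and 0.267 TPM in WT without overlap, and KRT5 was at 0 in all 6 libraries. Of 5 tested genes of this list 1 passed by limma, where 1.38% of all genes tested did. It was COL1A2, a collagen gene, at 3.84 TPM in K700E and 0.0423 TPM in WT on average (limma adjusted p = 0.0168). Among the 5, 3 had K700E libraries all above the WT libraries, where 19.0% of all genes tested did. The collagen genes COL1A1 (3.93 TPM in K700E, 1.89 TPM in WT) and COL3A1 (0.225 TPM in K700E, 0.0231 TPM in WT, not tested) were also higher in K700E without overlap. The part of these markers in the results below was not tested. The median gene tested had a log2 difference of 0.13 between K700E and WT. The differences of PPP2R5A and MYC are also given relative to it. Those of other single genes are not, and include this shift. The labels do not say that replicates were separate cultures, so the p-values speak for the spread of these libraries alone, which may be technical. Each genotype has a table of its own, so effects of genotype and of any difference in how the tables were made cannot be told apart.

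PPP2R5A encodes the alpha form of the B56 subunits. It lies on the plus strand of chromosome 1 (GRCh37, 212458752 to 212535195) and its 14 merged exon blocks cover 3532 bases. The bases just before its outer annotated start are shown because PPP2R5A is the gene the results turn on, with the reversed CCAAT box in capitals (RefSeq, GRCh38.p14, plus strand, chr1:212285160-212285409, 5′ to 3′).
PPP2R5A promoter: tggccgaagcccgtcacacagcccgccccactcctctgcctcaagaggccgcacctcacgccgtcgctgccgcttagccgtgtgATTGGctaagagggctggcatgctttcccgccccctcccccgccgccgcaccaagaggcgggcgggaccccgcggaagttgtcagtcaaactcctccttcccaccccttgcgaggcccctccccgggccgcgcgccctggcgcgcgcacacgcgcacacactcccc
This window of 250 bases is 72.0% G or C, against a median of 58.0% over 35116 windows of that length before annotated starts. It holds 1 CCAAT box (CCAAT on either strand), a motif present in 32.0% of those windows, and GC boxes (GGGCGG on either strand), present in 42.6%. The E-box CACGTG, the palindromic motif that MYC and MAX bind, is not in this window and is in 6.34% of all windows. Of the 10 genes, 7 matched the promoter table with 13 starts, none of which had CACGTG in the 250 bases before it. These are matches of letters only, and the RNA values per gene do not show which start was used.

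PPP2R5A stood at 27.3, 25.5 and 28.7 TPM in K700E replicates 1, 2 and 3, and at 67.9, 42.9 and 52.7 TPM in WT replicates 1, 2 and 3. The K700E libraries lay close together, the WT libraries were widely spread, and the lowest WT library was well above the highest K700E library. The means were 27.2 ± 1.64 TPM in K700E and 54.5 ± 12.6 TPM in WT (SD, n = 3 each). The log2 difference was -0.96 (SE 0.18, 95% interval -1.39 to -0.53), or -1.08 relative to the median gene, with an unadjusted limma p of 0.00103 and a limma adjusted p of 0.0621. On the TPM + 1 scale that interval spans 0.383 to 0.694 times the WT level. By p it stood 257th of the 15493 genes tested.

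The call for PPP2R5A turned on processing and on single libraries. It passed with TMM scaling (limma adjusted p = 0.0387), median-ratio scaling (0.0378), limma-voom on the recovered reads (0.0491) and without WT replicate 2 (0.0428). It also passed with a correction for GC content (limma adjusted p = 0.0148), which was added after the data were seen. Without WT replicate 3 the limma adjusted p was 0.275, at a log2 difference of -0.97. Without that library and with the GC correction it was 0.0971. Over all 17 alternatives the log2 difference ran from -1.11 to -0.79. The lowest count of PPP2R5A in a library was 4311 read ends, which gives an error of 2.15% from counting alone. The spread between libraries (SD over mean), which includes it, was 6.03% in K700E and 23.2% in WT.

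**Figure D1:**
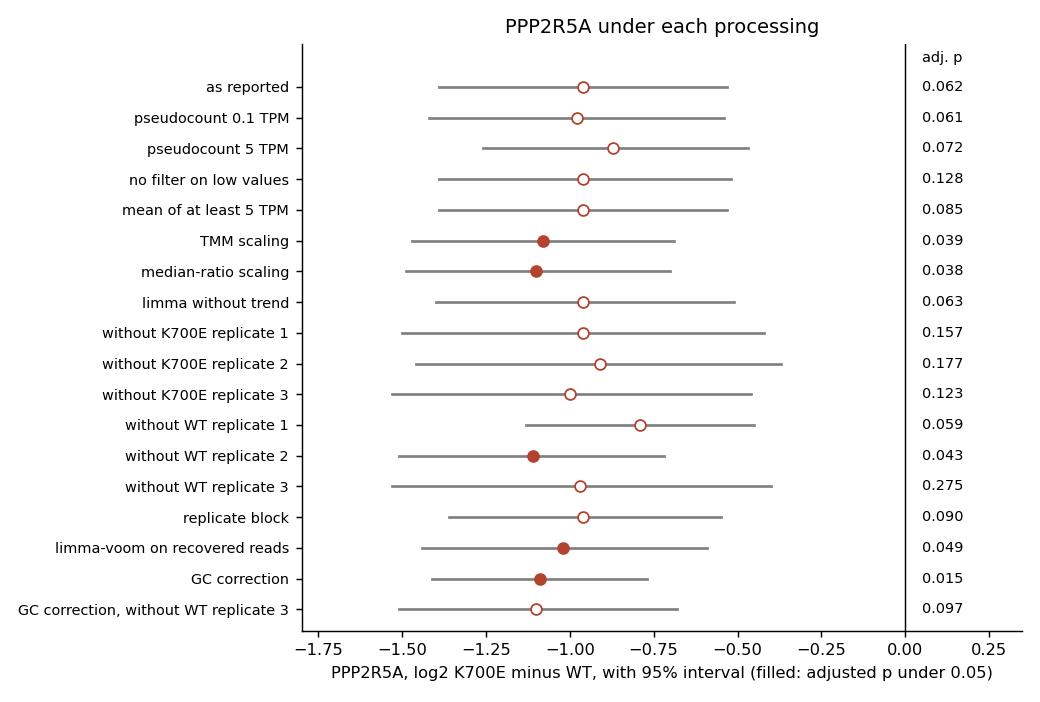
Log2 difference of PPP2R5A between K700E and WT cells (horizontal axis, with 95% interval) under each way of processing the values, with the limma adjusted p at the right. All points lie between -1.11 and -0.79, and the filled ones have an adjusted p under 0.05.

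**Figure D2:**
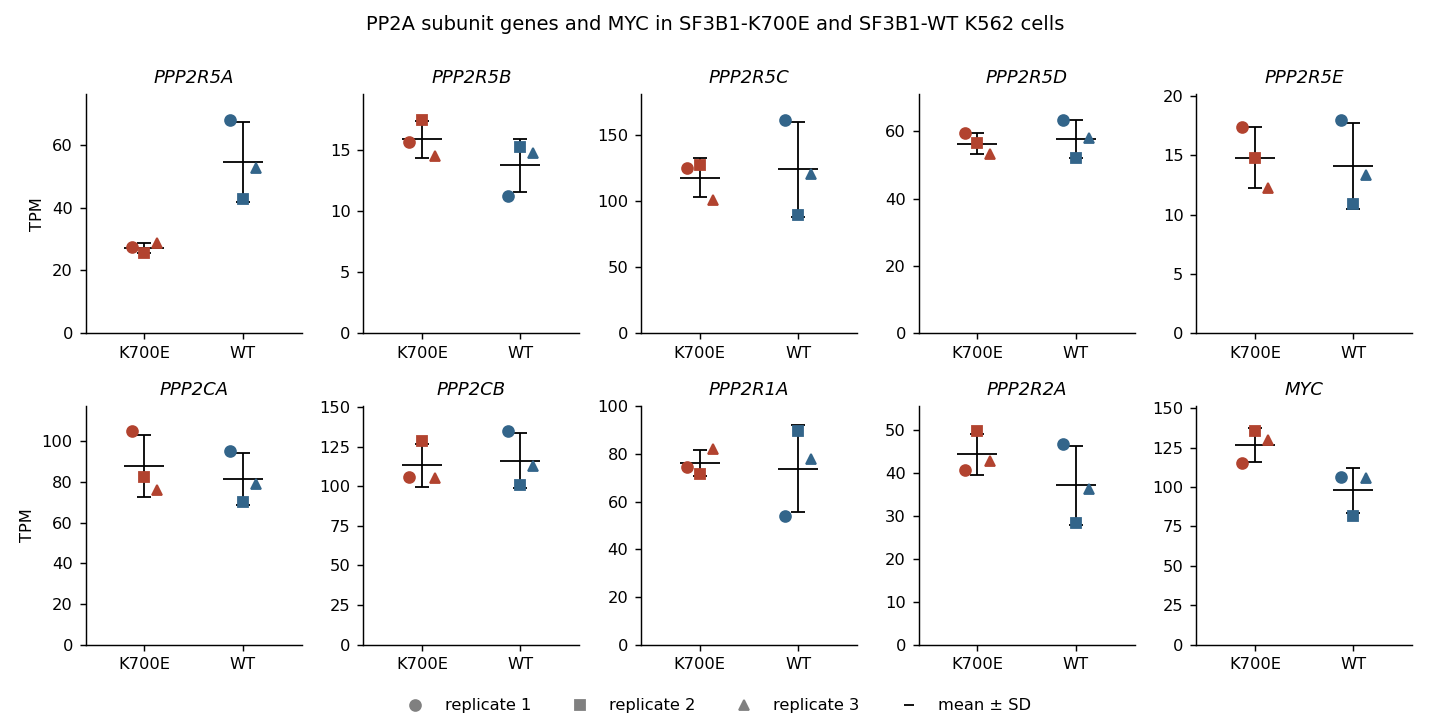
TPM of each gene by library in K700E (left) and WT cells (right), with a symbol for each replicate and bars for mean ± SD (n = 3). PPP2R5A and MYC are the genes whose libraries do not overlap between the groups in TPM as deposited. With TMM or median-ratio scaling those of MYC overlap.

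The other 4 B56 genes showed no such separation. PPP2R5C, the gamma form and the most abundant B56 gene, had 125, 127 and 101 TPM in K700E replicates 1, 2 and 3, against 161, 89.3 and 121 TPM in WT replicates 1, 2 and 3. All K700E values fell inside the WT range, and the log2 difference was -0.04 (95% interval -0.56 to 0.48, limma adjusted p = 0.948). PPP2R5D, the delta form, had 59.5, 56.4 and 53.3 TPM in K700E against 63.4, 52.1 and 58.0 TPM in WT, again within the WT range. Its log2 difference was -0.03 (95% interval -0.34 to 0.27, limma adjusted p = 0.927), the narrowest interval of the 10 genes.

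PPP2R5B, the beta form, stood at 15.7, 17.5 and 14.5 TPM in K700E and at 11.3, 15.3 and 14.8 TPM in WT. Of the 9 pairings of a K700E with a WT library, 7 had the higher value in K700E, and the log2 difference of 0.20 had a 95% interval of -0.19 to 0.59 (limma adjusted p = 0.598). PPP2R5E, the epsilon form, stood at 17.4, 14.8 and 12.2 TPM in K700E and at 18.0, 10.9 and 13.4 TPM in WT, with a log2 difference of 0.08 (95% interval -0.43 to 0.59, limma adjusted p = 0.888). The intervals of these 4 genes together span -0.56 to 0.59, so the test does not show that their levels were equal. None of the 4 intervals reaches the estimate of -0.96 found for PPP2R5A, whose own 95% interval of -1.39 to -0.53 overlaps that of PPP2R5C. Differences between genes were not tested.

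Among B56 transcripts, PPP2R5A made up a smaller share in K700E cells. It was 11.2, 10.5 and 13.7% of the summed B56 TPM in K700E replicates 1, 2 and 3, and 21.1, 20.4 and 20.3% in WT replicates 1, 2 and 3. This share does not depend on scaling between libraries, and the WT libraries, which differed widely in TPM, differed little in it. The mean share was 11.8 ± 1.68% in K700E and 20.6 ± 0.445% in WT (SD, n = 3 each), a difference of -8.79 percentage points, or -8.93 without WT replicate 3, given as a description with no test. PPP2R5C held 50.6 ± 2.35% of the sum in K700E and 46.3 ± 3.82% in WT, and PPP2R5D 24.4 ± 1.03% in K700E and 22.3 ± 2.53% in WT, both with overlap. PPP2R5E was at 7.11, 6.12 and 5.84% of the sum in K700E and at 5.59, 5.17 and 5.16% in WT, the opposite order to PPP2R5A and also without overlap. As a percentage of the level of PPP2R5E, PPP2R5A was at 157, 172 and 235% in K700E and at 378, 394 and 394% in WT. The summed level of all 5 B56 genes overlapped between the groups, at 209 to 244 TPM in K700E and 210.5 to 322 TPM in WT. The sum without PPP2R5A averaged 204.5 ± 20.7 TPM in K700E and 209.4 ± 43.2 TPM in WT.

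**Figure D3:**
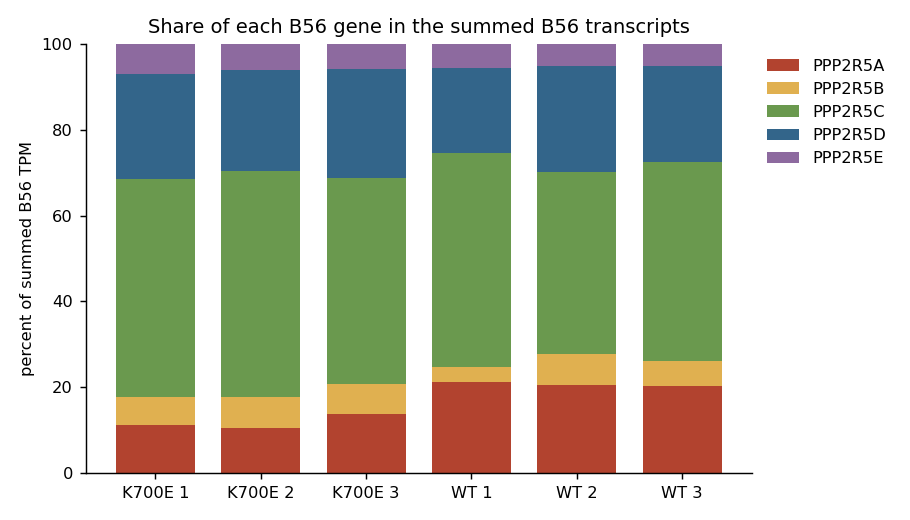
Percent of the summed B56 TPM held by each of the 5 B56 genes, with a bar for each library (K700E left, WT right). PPP2R5A, at the bottom of each bar, holds 10.5 to 13.7% in K700E and 20.3 to 21.1% in WT.

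The catalytic and scaffold genes overlapped between the groups. PPP2CA, which encodes the alpha catalytic subunit, had 105.1, 82.5 and 76.2 TPM in K700E replicates 1, 2 and 3 and 95.3, 70.1 and 78.9 TPM in WT replicates 1, 2 and 3 (log2 difference 0.11, 95% interval -0.30 to 0.52, limma adjusted p = 0.806). PPP2CB, which encodes the beta catalytic subunit, had 106, 129 and 105.0 TPM in K700E and 135, 101 and 113 TPM in WT (log2 difference -0.03, 95% interval -0.40 to 0.33, limma adjusted p = 0.938). The genes encode closely similar proteins, and the authors' handling of reads shared between them is not given in the sources used here. Their sum, which such sharing affects less, was 181 to 211 TPM in K700E and 171 to 230.2 TPM in WT.

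PPP2R1A, the main scaffold gene, had 74.4, 71.6 and 82.2 TPM in K700E and 53.9, 89.6 and 77.8 TPM in WT (log2 difference 0.07, 95% interval -0.39 to 0.53, limma adjusted p = 0.889). It made up 78.8 ± 3.17% of the scaffold transcripts in K700E and 81.1 ± 7.82% in WT (SD, n = 3 each), the rest being PPP2R1B. PPP2R2A, a B55 regulatory subunit gene whose product takes PP2A to mitotic substrates, had 40.7, 49.8 and 42.8 TPM in K700E and 46.9, 28.5 and 36.3 TPM in WT. Its log2 difference was 0.27 (95% interval -0.19 to 0.74, limma adjusted p = 0.539), and WT replicate 1 lay above K700E replicates 1 and 3.

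MYC encodes a transcription factor that drives growth genes, and its RNA stood at 114.9, 135 and 129.7 TPM in K700E replicates 1, 2 and 3, against 106, 81.5 and 105.7 TPM in WT replicates 1, 2 and 3. In TPM as deposited the groups were separate by a narrow gap, since the highest WT libraries came close to K700E replicate 1. Scaling between libraries closes this gap. TMM scaling divides K700E replicate 1 by 1.089 and WT replicates 1 and 3 by 0.985 and 0.964, after which the groups overlap. The median-ratio factors, 1.099 for K700E replicate 1 and 0.979 for WT replicate 1, also give overlap. The means were 127 ± 10.6 TPM in K700E and 97.8 ± 14.1 TPM in WT (SD, n = 3 each). The log2 difference was 0.38 (SE 0.15, 95% interval 0.03 to 0.73), or 0.25 relative to the median gene, at an unadjusted limma p of 0.0384 and a limma adjusted p of 0.27. Without WT replicate 3 the difference was 0.44, with a 95% interval of -0.02 to 0.90 (limma adjusted p = 0.554). The interval also reached below 0 with TMM scaling (-0.09 to 0.59), median-ratio scaling (-0.10 to 0.57) and GC correction (-0.12 to 0.61). The same held with replicate number as a block (-0.02 to 0.78) and without WT replicate 2, K700E replicate 2 or K700E replicate 3. It stayed above 0 with the other pseudocounts and filters and without K700E replicate 1 or WT replicate 1. The MYC difference was between 0.23 and 0.45 over all 17 alternatives, and its limma adjusted p between 0.156 and 0.586. There were 4.20, 5.32 and 4.52 MYC transcripts for each PPP2R5A transcript in K700E by TPM, and 1.56, 1.90 and 2.01 in WT.

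Of the 9 PP2A genes described here 0 passed the planned limma test, where 214 of all genes tested (1.38%) did. At an unadjusted p under 0.05 there was 1, PPP2R5A, where 16.5% of all genes tested were, so the count itself does not stand out. Limma-voom called PPP2R5A alone among the 9, and 221 of all 15493 genes tested. Among all 10 genes, the median log2 difference was 0.08, against 0.13 over all genes tested.

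**Figure D4:**
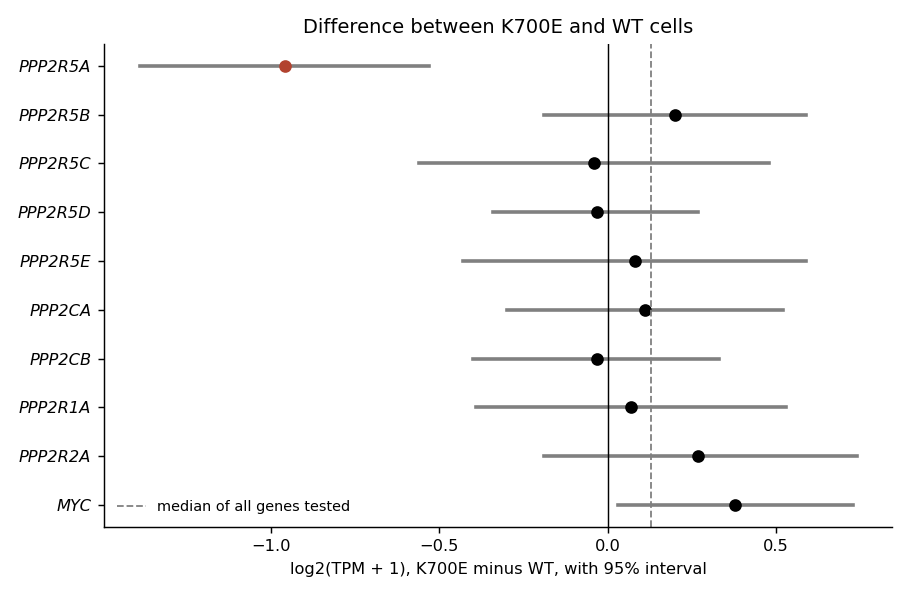
Log2(TPM + 1) difference between K700E and WT cells with its 95% interval for the 10 genes, and the median of all genes tested as a dashed line. The interval of PPP2R5A (-1.39 to -0.53) lies wholly below 0, that of MYC (0.03 to 0.73) wholly above it, and the other 8 cross 0. That of MYC reaches below 0 under several alternatives, among them TMM scaling (-0.09 to 0.59).

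By mean level the order in K700E cells was MYC, PPP2R5C, PPP2CB, PPP2CA, PPP2R1A, PPP2R5D, PPP2R2A, PPP2R5A, PPP2R5B and PPP2R5E. In WT cells PPP2R5C, PPP2CB and MYC led, followed by PPP2CA, PPP2R1A, PPP2R5D, PPP2R5A, PPP2R2A, PPP2R5E and PPP2R5B. PPP2R5A ranked 8th in each K700E library and 5th, 7th and 7th in WT replicates 1, 2 and 3. In the K700E order each gene from MYC to PPP2R1A overlapped with the next, as did PPP2R5B with PPP2R5E, while PPP2R5D, PPP2R2A and PPP2R5A were each separate from their neighbours. In the WT order each gene overlapped with the next, except PPP2R2A with PPP2R5E.

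The spread among WT libraries ran partly with GC content in these genes. WT replicate 1 exceeded WT replicate 2 in 8 of the 10 genes, the exceptions being PPP2R5B and PPP2R1A, whose transcripts are 60.9 and 53.7% G or C. MYC and PPP2R5D, at 53.9 and 55.5%, had more G or C than PPP2R1A and still lower values in WT replicate 2 than in WT replicate 1 (log2 differences of -0.38 and -0.28). PPP2R5E, PPP2R2A and PPP2R5C, at 38.8, 38.6 and 41.5%, had log2 differences of -0.68, -0.70 and -0.84 between WT replicate 2 and WT replicate 1. Pearson's r between GC content and that difference was 0.75 over the 10 genes and 0.70 over 15129 tested genes with a value, a description over genes that share the same pair of libraries. PPP2R5A, at 46.7%, had a difference of -0.65 between these libraries.

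The genes around PPP2R5A were not lower in K700E as a group. Within 1 Mb on either side 21 other genes were tested, with a median log2 difference of 0.11 (-0.01 relative to the median gene). None of the 21 had K700E libraries that all lay below the WT libraries, 4 had them all above, and 0 passed the planned limma test (2 at an unadjusted p under 0.05, 1 by limma-voom). Over all genes tested the shares were 4.99% all below, 19.0% all above, 1.38% passing and 16.5% at an unadjusted p under 0.05. Limma-voom called 221 of all 15493 genes tested. The upward count was near the background. The nearest coding neighbour downstream, PACC1, a chloride channel gene, had a log2 difference of -0.06, and DTL, an adaptor of a ubiquitin ligase upstream, had 0.31. The lowest was SLC30A1, a zinc exporter gene, at -0.59 (limma adjusted p = 0.449), and the highest was BATF3, a transcription factor gene, at 1.23 (0.157). FLVCR1-DT, a non-coding RNA, was at 0.85, just outside the threshold (limma adjusted p = 0.0508). Around MYC only 2 other genes reached the level tested. PVT1, a long non-coding RNA next to MYC, had 6.56, 11.1 and 10.2 TPM in K700E against 12.1, 12.3 and 12.1 TPM in WT, the opposite direction to MYC (log2 difference -0.38, limma adjusted p = 0.4). The window was chosen after the values of PPP2R5A and MYC were seen.

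**Figure D5:**
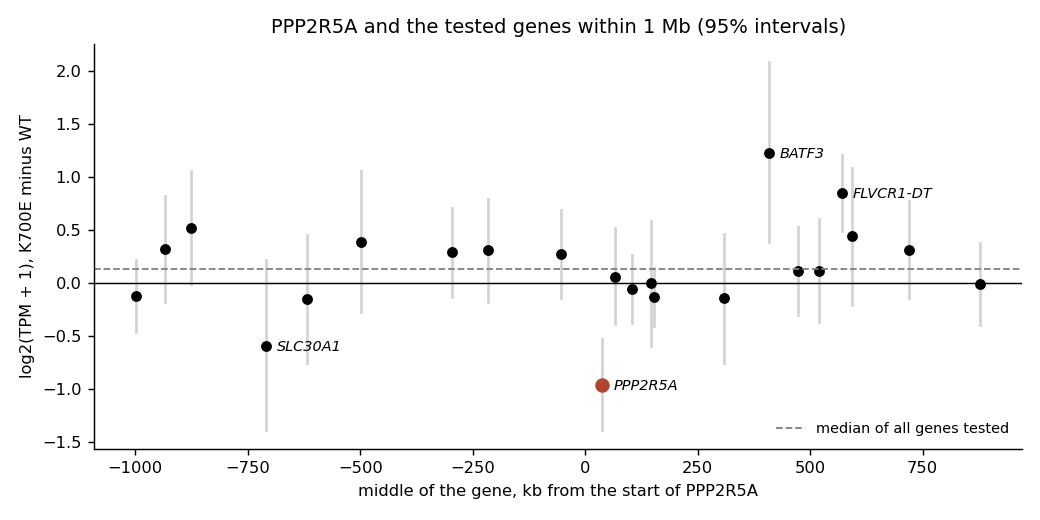
Log2(TPM + 1) difference between K700E and WT cells (vertical axis, with 95% interval) of PPP2R5A and the 21 other tested genes within 1 Mb, by distance of the middle of each gene from the start of PPP2R5A. PPP2R5A (-0.96) is the lowest, and SLC30A1 (-0.59) the next.

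The genes whose pattern over the 6 libraries was most like that of PPP2R5A were RDX, TPR, ELP2, TTI1 and NSMCE4A, among 12539 tested genes compared. Pseudogenes and genes with no symbol, or with a clone, LINC or ID name, were left out of that comparison. Likeness was the root-mean-square difference between centred log2(TPM + 1) values, which was 0.069, 0.089, 0.090, 0.098 and 0.114 for these 5, against a median of 0.614. RDX, which encodes radixin, a linker of actin to the membrane, had 21.9, 20.8 and 24.2 TPM in K700E and 55.1, 39.9 and 43.8 TPM in WT. TPR, a nuclear pore protein gene, averaged 61.9 ± 5.15 TPM in K700E and 115 ± 18.6 TPM in WT. ELP2, an Elongator subunit gene, averaged 32.0 ± 1.15 TPM in K700E and 65.8 ± 8.87 TPM in WT (SD, n = 3 each). TTI1, which helps assemble kinases related to mTOR, and NSMCE4A, of the SMC5/6 complex, had means of 24.8 and 14.3 TPM in K700E and 48.6 and 25.3 TPM in WT. These genes were picked by that likeness, so their lower values in K700E are a description.

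Other genes of PP2A and of MYC control were described from 8 lists of 83 genes, of which 76 reached the level tested. By limma 0 of the 76 passed, where 1.38% of all genes tested did. A count of 0 in the 76, or in the shorter lists below, therefore does not stand out. At an unadjusted p under 0.05 there were 3 (IGBP1, MLXIP and NOP16), a smaller share than the 16.5% of all genes tested. Limma-voom called 0 of the 76, and 221 of all 15493 genes tested. The median log2 difference of the 76 was 0.10, against 0.13 over all genes tested, and the groups did not overlap in 8 of them, where 24.0% of all genes tested did not.

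Of 10 further PP2A subunit genes 6 were tested and 0 passed. PPP2R1B, the second scaffold gene, stood at 20.4 ± 2.97 TPM in K700E and 16.2 ± 4.04 TPM in WT (limma adjusted p = 0.484), and the striatin genes STRN3 and STRN, which place PP2A in the STRIPAK complex, had log2 differences of 0.31 and -0.17. PPP2R2B, PPP2R2C and PPP2R3A were under 1 TPM on average and were not tested. At those low levels PPP2R2B (0.0803 TPM in K700E, 0.137 TPM in WT) and PPP2R3A (0.464 TPM in K700E, 0.259 TPM in WT) did not overlap, in opposite directions. PPP2R3B, which lies in the region shared by the X and Y chromosomes, was listed at 0 in all 6 libraries. Of 5 assembly and methylation factors 0 passed. IGBP1, which encodes alpha4, a protein that holds free catalytic subunits, had 124, 150.1 and 153 TPM in K700E against 202, 196 and 190.5 TPM in WT. Its groups did not overlap, and its log2 difference was -0.47 (95% interval -0.76 to -0.17, limma adjusted p = 0.135). With the GC correction IGBP1 was the 1 gene of the 8 lists that passed the limma test, where 481 of all 15129 genes tested did. A count of 1 therefore does not stand out. With the GC correction and without WT replicate 3, 0 genes passed. PTPA, an activator of PP2A, and LCMT1, which methylates the catalytic subunit, had log2 differences of 0.22 and -0.11.

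Of 8 genes of PP2A inhibitors 0 passed. SET, an inhibitor reported to restrain PP2A in chronic myeloid leukaemia cells, stood at 579 ± 67.2 TPM in K700E and 591 ± 112 TPM in WT (SD, n = 3 each). CIP2A, an inhibitor that protects MYC, stood at 16.6 ± 2.39 TPM in K700E and 13.7 ± 4.65 TPM in WT (limma adjusted p = 0.598). PABIR1, an inhibitor of the B55 form, was separate by a small margin at 7.43, 7.21 and 7.51 TPM in K700E against 8.12, 7.94 and 8.35 TPM in WT (log2 difference -0.12, limma adjusted p = 0.695). ARPP19, an inhibitor of the B55 form in mitosis, had a log2 difference of -0.22, and PABIR2, a relative of PABIR1, had 0.17.

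Of 6 related catalytic subunit genes and 7 genes of B56 docking partners 0 passed. PPP1CB and PPP5C, catalytic subunits of protein phosphatases 1 and 5, had log2 differences of 0.45 and 0.27, with limma adjusted p of 0.332 and 0.459. BUB1B, which encodes the checkpoint protein BUBR1 that recruits B56 to kinetochores, stood at 94.6, 58.0 and 66.1 TPM in K700E and at 97.7, 52.8 and 72.0 TPM in WT, with a log2 difference of -0.01. APC, KIF4A and SGO2, among the docking partners with the lowest adjusted p, had log2 differences of 0.32, 0.24 and 0.46.

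Of 11 genes that act on MYC phosphorylation or degradation 0 passed. FBXW7, the ubiquitin ligase subunit that binds phosphorylated MYC, had a log2 difference of -0.10, and its groups overlapped. SKP2, another ligase subunit, had 23.0, 38.4 and 33.6 TPM in K700E and 48.6, 31.7 and 40.1 TPM in WT, and the groups overlapped (limma adjusted p = 0.515). GSK3A, a kinase that phosphorylates MYC, had a log2 difference of 0.11.

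Of 11 tested MYC partners and relatives 0 passed, and MAX, its dimer partner, was at 20.6 ± 0.797 TPM in K700E and 19.5 ± 0.802 TPM in WT (SD, n = 3 each). MLXIP, a glucose-sensing relative, had 55.7, 61.6 and 59.5 TPM in K700E against 40.7, 46.4 and 48.8 TPM in WT (log2 difference 0.38, limma adjusted p = 0.216). MGA and MXD1, which compete for MAX, had log2 differences of -0.30 and -0.17, and MYCN was near 0 in all libraries. Of 22 tested MYC target genes 0 passed, and 5 had K700E libraries that all lay above the WT libraries, a share near the 19.0% of all genes tested. NOP16 and NOP56, nucleolar proteins of ribosome assembly, had log2 differences of 0.38 and 0.30, with limma adjusted p of 0.217 and 0.315. POLR1B, a subunit of RNA polymerase I, had 0.41 (0.416). The median of the MYC targets was 0.18, or 0.06 relative to the median gene, with 13 of 22 above it, and EIF4A1 was listed at 0 in all 6 libraries.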

How the data were processed

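The authors deposited TPM values per gene, with 1 table for each genotype and gene lengths beside the WT values. The WT table carries the annotation columns that featureCounts writes, and its library names end the way STAR names sorted alignments, per the file headers. Tools listed by the submitters' processing notes, without roles, are DESeq2, featureCounts 2.0.1, TopHat2 2.1 and cutadapt 2.10, with the build GRCh37 (hg19). The sources used here give neither the aligner of the K700E table nor the strand setting. Each column summed to 1000000. TPM multiplied by gene length was a whole multiple of 1 step per library for all genes above 0 (tolerance 0.01), which gave read ends per gene. Symbols matched 58604 of 62111 gene IDs. The 15493 genes averaging 1 TPM or more entered limma 3.58.1 (R 4.3.3) as log2(TPM + 1) (trend, genotype as the only term, two-sided, Benjamini-Hochberg adjustment over all tested genes, threshold 0.05). Fold changes on this scale understate low genes. GC content came from the longest GENCODE transcript and was joined by gene ID (97.7% of tested genes).

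The genes and lists were chosen with earlier results of these data known. Named genes were all 10 members, then, for each list, any gene called and up to 3 others by lowest adjusted p, and the 5 genes most like PPP2R5A. Others named by what they do, or because they were listed at 0, were added after values were seen. Alternatives were other pseudocounts, filters and scalings, limma without trend, limma-voom, leaving out each library and a replicate block. GC correction was added after seeing the data. A gene that this rule names is not reported here.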

Additional observations from a re-analysis of the deposited data

How the results depend on the processing

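PPP2R5A, with a log2 difference of -0.96 as reported, kept its direction under all 17 alternatives and passed the threshold in 5: -1.08 with TMM scaling, -1.10 with median-ratio scaling, -1.02 with limma-voom, -1.09 with GC correction, and -1.11 without WT replicate 2. In those 5 the number of PP2A genes called was 1, against 0 otherwise. Leaving out 1 library gave -1.11 to -0.79 for PPP2R5A (0 or 1 PP2A genes called), 0.25 to 0.45 for MYC, and -9.74 to -8.15 percentage points for the PPP2R5A share of B56. MYC kept its direction and did not pass in any alternative. With GC correction the lists held 1 called gene, IGBP1. The 214 genes called over all tested became 0 with no filter on low values (4891 at an unadjusted p under 0.05), 92 with a minimum of 5 TPM, 67 with the replicate block, 481 with GC correction and 0 with GC correction and no WT replicate 3 (1969 unadjusted). Without 1 library they ranged from 0 (without WT replicate 3, 1462 unadjusted) to 182. The share of calls that were higher in K700E was 83.2%, 75.5% with TMM scaling, 74.4% with median-ratio scaling and 58.6% with GC correction, and TMM scaling put the median gene at 0.01.

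Several differences near 0 changed sign. With TMM scaling, median-ratio scaling, GC correction, and GC correction without WT replicate 3, PPP2R5E was at -0.04, -0.05, -0.05 and -0.06, PPP2CA at -0.02, -0.04, -0.02 and -0.03, and PPP2R1A at -0.05, -0.07, -0.06 and -0.03. Leaving out 1 library gave -0.25 to 0.17 for PPP2R5C, -0.10 to 0.04 for PPP2R5D, -0.08 to 0.26 for PPP2R5E, -0.03 to 0.22 for PPP2CA, -0.13 to 0.08 for PPP2CB and -0.13 to 0.23 for PPP2R1A. The causes were not tested. The labels do not say whether the replicate numbers pair the samples. Deviations of same-numbered libraries from their group means correlated at 0.281, -0.192 and 0.299. K700E replicate 3 correlated best with WT replicate 2 (0.428). Deviations within each group sum to 0, so these correlations depend on each other and cannot settle the pairing. With the replicate block the limma adjusted p of PPP2R5A was 0.0898. The counting error of 2.15% at the lowest PPP2R5A count covers counting only.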
